A study of Mus musculus with 4 samples.

Results

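The RNAs described here encode APC, the end-binding proteins EB1, EB2 and EB3 (Mapre1, Mapre2 and Mapre3), the CLASPs (Clasp1 and Clasp2), the CLIPs (Clip1 and Clip2) and the spectraplakins MACF1 and dystonin (Macf1 and Dst). Every probe set whose only gene symbol in the platform annotation was 1 of these 10 genes was taken, which gave 37 of the 45037 non-control probe sets on the array. Expression was measured on 4 Affymetrix mouse arrays, 2 of pseudopodia and 2 of cell bodies, all from NIH/3T3 cells, a line of mouse embryo fibroblasts. Both compartments came from cells kept without serum on a porous membrane with fibronectin on its underside. The cells put out protrusions through the pores for 1 h before fixation in 0.3% formaldehyde for 10 min. The fixation was reversed at 70 °C for 45 min for both compartments. The fibronectin stimulus is therefore common to both, and the comparison is between parts of the cell. Each compartment was recovered by wiping the other off the membrane by hand, per the labels' protocols. The samples of a compartment are described as independent, but separate cultures are not mentioned, so the p-values reflect the spread among these 4 arrays, part or all of which may be technical.

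Microtubules grow by adding tubulin at their plus ends, and end-binding proteins sit on the growing end and recruit most other plus-end proteins. CLIPs reach the end through CAP-Gly domains, and CLASPs stabilise microtubules near the cell edge. APC, best known as a scaffold of the complex that degrades beta-catenin, also gathers at the plus ends of microtubules in the tips of protrusions, where in fibroblasts it binds a set of localized mRNAs. Spectraplakins are very large proteins that bind both microtubules and actin filaments. These are properties of the proteins, whereas the arrays measured where the mRNAs were.

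The deposited values were intensities on a linear scale with a floor of 20, and a value at the floor is only an upper bound. A probe set was tested where its mean log2(intensity + 1) over the 4 arrays reached the median over all probe sets but controls, an intensity of 42.0. Of the 37 probe sets, 26 passed, with at least 1 for each of the 10 genes, and 11 did not, of which 5 lay at the floor on all 4 arrays (3 of Clasp2 and 2 of Clip1). Differences are given as pseudopodia minus cell bodies on the log2 scale, from limma's moderated test over all 22519 tested probe sets with Benjamini-Hochberg adjustment and a threshold of 0.05. They compare the share of a transcript in the RNA of each compartment, and the number of cells or protrusions collected and the RNA in each cannot be told apart. Intensities of different probe sets are not on a common scale, so no gene's level is set against that of another.

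Across these genes, Apc was the only one called higher in pseudopodia, at both of its tested probe sets, and genes were not tested against each other. Clasp1 had 1 dim probe set called lower, which passed the filter through its cell body arrays alone. The 3 calls among 26 tested probe sets compare with 11.7% called over all tested probe sets, so the share of calls lay near the background. By direction, 2 of the 26 were called higher against a background of 4.3%, and 1 lower against 7.44%. The median difference of the 26 was 0.12, against -0.0038 over all tested probe sets. Differences above 0 were found at 18 of the 26, against 49.6% of all tested probe sets. Both pseudopodia arrays lay above both cell body arrays at 12 of the 26, against 28.7% over all tested, and below them at 5, against 30.9%, so that 17 of the 26 had no overlap, against 59.6%. An unadjusted p under 0.05 was found at 8 of the 26, against 29.5%. These 26 probe sets come from 10 genes and the same 4 arrays and are not independent of each other.

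**Figure D1:**
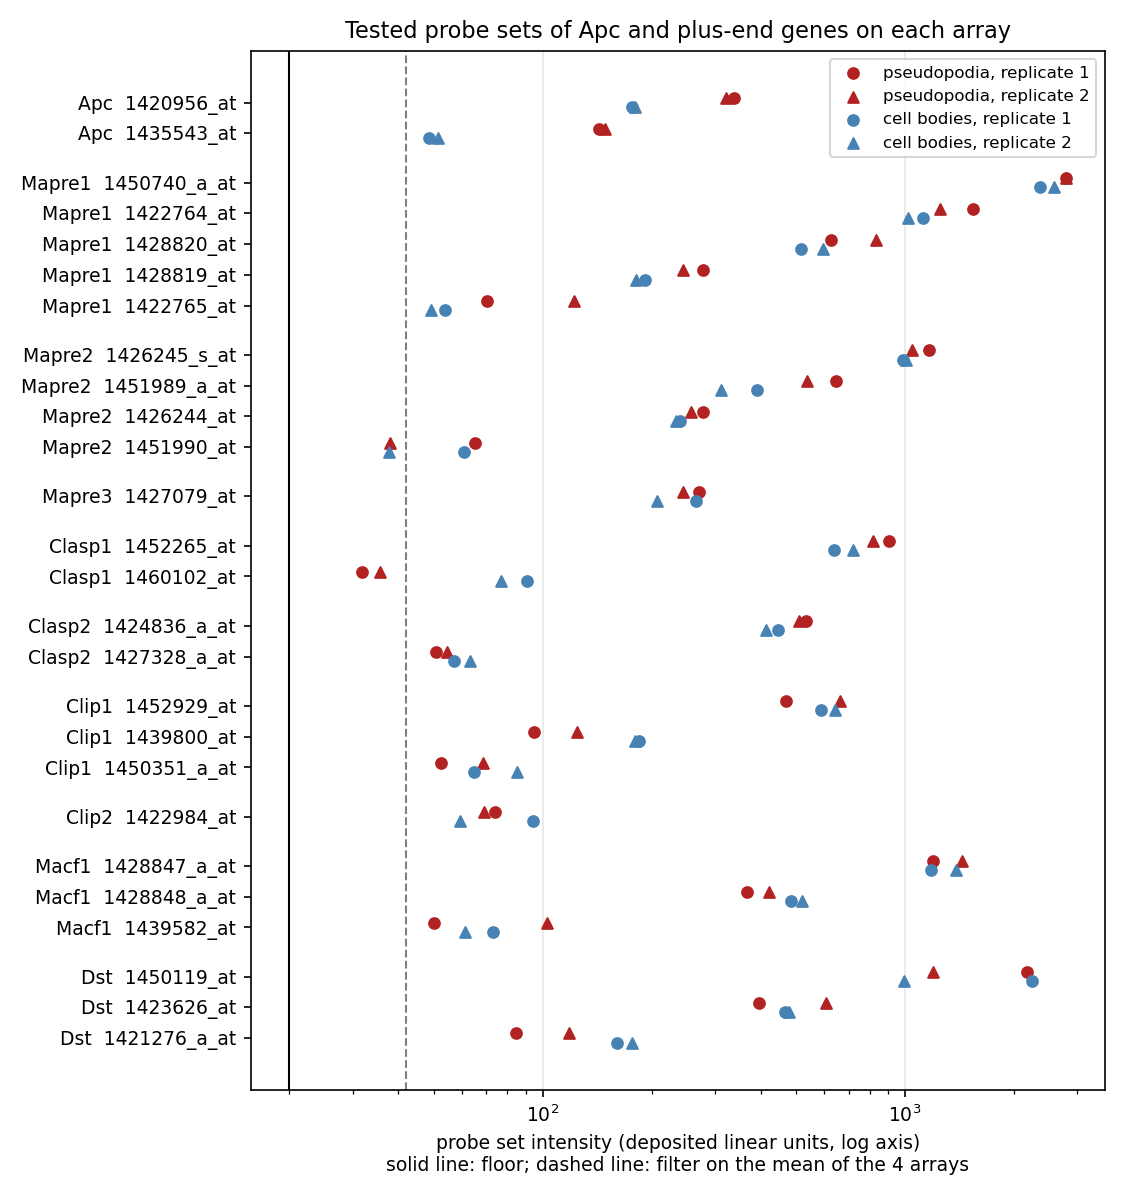
Intensity (deposited linear units, log axis) of the 26 tested probe sets on each array, with pseudopodia in red above cell bodies in blue, circles for replicate 1 and triangles for replicate 2. The solid line marks the floor of 20 and the dashed line the filter of 42.0 on the mean of the 4 arrays. Both red points lie to the right of both blue points at 12 of the 26, against 28.7% of all tested probe sets. Both Apc and all 5 Mapre1 probe sets are among these 12, and Dst 1450119_at splits by replicate number instead of compartment.

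Apc was higher in pseudopodia at both of its probe sets that passed the filter. At 1420956_at its intensity was 338 and 322 on the pseudopodia arrays, against 176 and 180.2 on the cell body arrays. Replicates lay close together and the compartments well apart, at 329.9 ± 11.8 in pseudopodia and 178 ± 2.89 in cell bodies (SD, n = 2 each). The log2 difference was 0.88 (SE 0.14, 95% interval 0.52 to 1.25, limma adjusted p = 0.0304), a 1.85-fold rise. At 1435543_at, Apc read 143 and 149 in pseudopodia, against 48.4 and 51.5 in cell bodies, again with no overlap. This was a rise of 1.53 (SE 0.14, 95% interval 1.16 to 1.90, limma adjusted p = 0.0241), or 2.89-fold.

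The dimmer of these Apc probe sets thus showed the wider gap between compartments. The gap itself differed between them by 0.65 on the log2 scale (SE 0.13), which missed the threshold when tested over all 8065 within-gene pairs of probe sets (limma adjusted p = 0.121). The remaining probe sets of Apc, 1420957_at and 1450056_at, were dim on every array, at 20.1 to 27.4 and at 20 to 27.7, and were not tested. The Apc calls rest on all 4 arrays: with any 1 of them left out, the difference stayed between 0.85 and 0.92 at 1420956_at and between 1.49 and 1.58 at 1435543_at. Their adjusted p then ranged over 0.0804 to 0.148 and over 0.0598 to 0.136, and limma called 0 of the 22519 probe sets, with 1847 to 2750 higher and 2432 to 3526 lower at an unadjusted p under 0.05. Both calls were also lost without the filter on low values, at limma adjusted p = 0.0789 and 0.0700. Most calls on the array were lost there too, with 33 of 45037 probe sets called higher and 40 lower, against 969 and 1676 with the filter. Under a stricter filter 1435543_at was not tested.

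The pattern over the 4 arrays most like that of Apc at 1435543_at, by Euclidean distance between log2 values centred on each probe set's mean, was that of Sh3bgrl (1428107_at), at a distance of 0.056. Sh3bgrl read 1071 and 1154 in pseudopodia, against 381 and 388 in cell bodies. Kcna7, a potassium channel gene (1450490_at), came next at 0.086, and Mff, whose product recruits the mitochondrial fission machinery (1456736_x_at), after it at 0.094. Kcna7 passed the filter through its pseudopodia arrays alone, at 81.0 and 79.1 in pseudopodia, against 26.5 and 26.7 in cell bodies. Over only 4 arrays such likeness is mainly a likeness in the size of the difference.

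Mapre1, which encodes EB1, the main end-binding protein of proliferating cells, lay higher in pseudopodia at all 5 of its probe sets, but 0 of them passed the test (limma, 2 of 5 at an unadjusted p under 0.05). Its brightest probe set, 1450740_a_at, read 2789 and 2788 in pseudopodia, against 2368 and 2589 in cell bodies. The difference there was 0.17 (SE 0.14, 95% interval -0.20 to 0.55, adjusted p = 0.496). At 1422764_at, Mapre1 read 1548 and 1254 in pseudopodia, against 1127 and 1024 in cell bodies, a difference of 0.38 (SE 0.17, adjusted p = 0.238).

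The other Mapre1 probe sets had larger differences at lower intensities. At 1428820_at the values were 626 and 836 in pseudopodia, against 516 and 595 in cell bodies, a difference of 0.38 (adjusted p = 0.292). At 1428819_at they were 277 and 245 in pseudopodia, against 192 and 182 in cell bodies, a difference of 0.48 (SE 0.15, 95% interval 0.08 to 0.87, adjusted p = 0.116). At 1422765_at Mapre1 read 70.5 and 122 in pseudopodia, against 53.9 and 49.3 in cell bodies, and the difference of 0.83 (SE 0.29, adjusted p = 0.144) rests in good part on pseudopodia replicate 2, without which it was 0.44. None of the 4 comparisons of a Mapre1 probe set with the brightest one passed the threshold (limma adjusted p of 0.329 to 0.587, 0 of 4 at an unadjusted p under 0.05). Pseudopodia lay above cell bodies without overlap at all 5, as they did at 28.7% of all tested probe sets. All 5 were read from the same RNA.

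Mapre2, which encodes EB2, was above 0 at all 4 tested probe sets, of which 0 passed the test (limma, 1 of 4 at an unadjusted p under 0.05). The exception in size was 1451989_a_at, where Mapre2 read 646 and 537 in pseudopodia, against 392 and 310.5 in cell bodies. All pseudopodia values exceeded all cell body values, with a difference of 0.75 (SE 0.20, 95% interval 0.24 to 1.27, adjusted p = 0.0780), the nearest to the threshold among the end-binding proteins. The brightest probe set, 1426245_s_at, read 1167 and 1049 in pseudopodia, against 988 and 1011 in cell bodies, a difference of 0.15 (SE 0.15, adjusted p = 0.570). At 1426244_at Mapre2 read 277 and 257 in pseudopodia, against 239 and 233 in cell bodies, a difference of 0.17 (adjusted p = 0.484).

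The gap between compartments was 0.61 wider at 1451989_a_at than at the brightest Mapre2 probe set (SE 0.18, adjusted p = 0.186 over the within-gene pairs). At the dim 1451990_at the replicates of both compartments spread as widely as each other, at 65.2 and 37.9 in pseudopodia, against 60.6 and 37.6 in cell bodies, and the difference was 0.06 (SE 0.36). The untested probe set of Mapre2, 1442553_at, read above the floor on 1 pseudopodia array alone, at 25.1. Mapre3, which encodes EB3, the end-binding protein best known from neurons and muscle, had 1 probe set. It read 270 and 245 in pseudopodia, against 266 and 207 in cell bodies, so the compartments overlapped, and its difference was 0.13 (SE 0.19, 95% interval -0.36 to 0.62, adjusted p = 0.699).

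**Figure D2:**
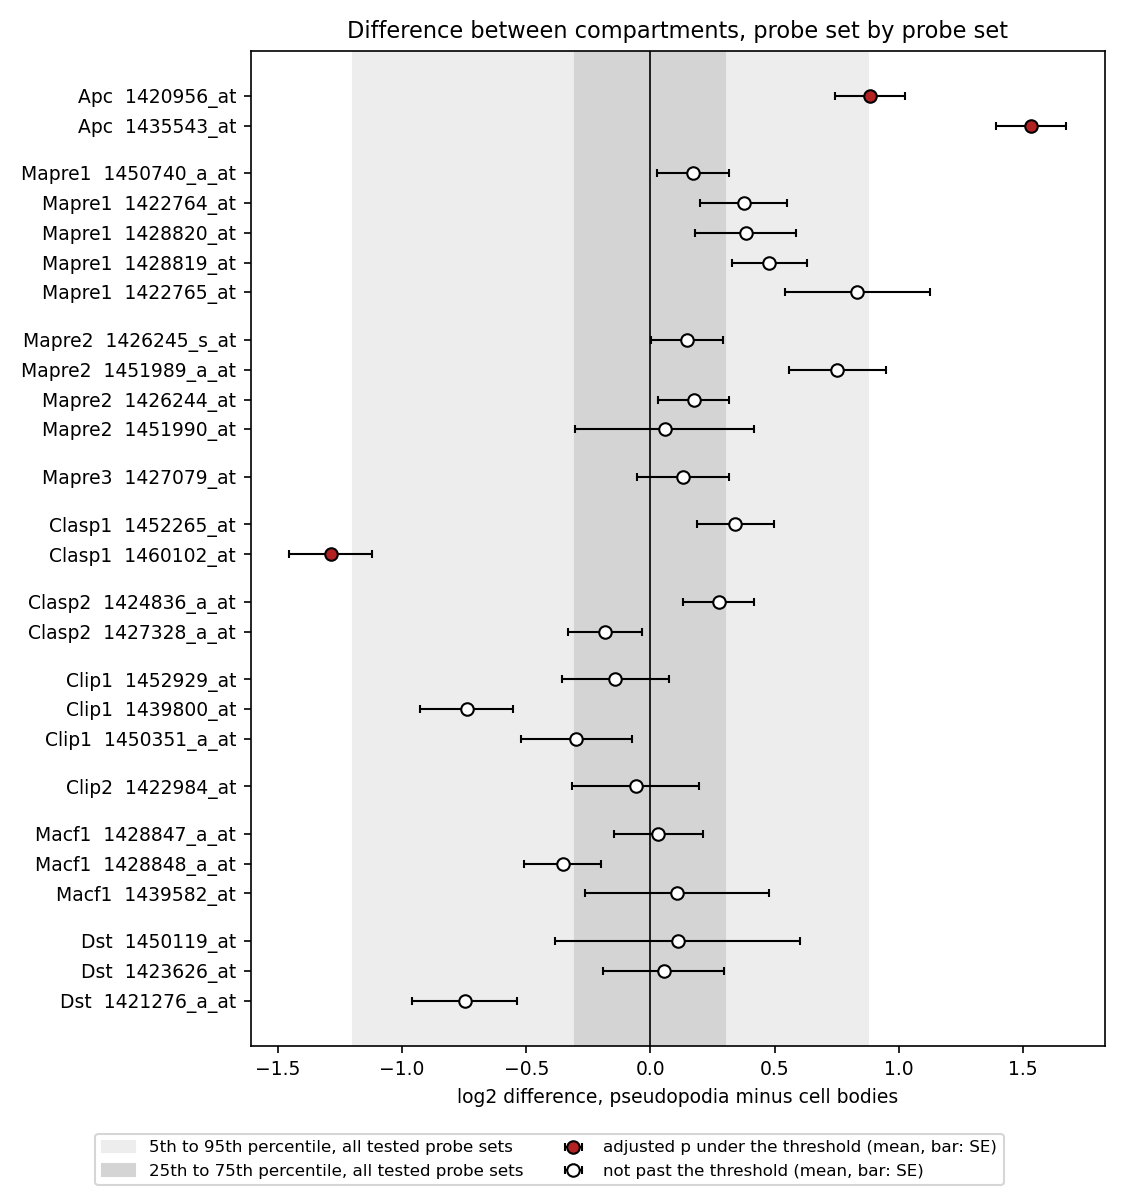
Log2 difference, pseudopodia minus cell bodies, of each tested probe set (points, with SE as bars), filled where the adjusted p was under the threshold; shaded bands span the 5th to 95th percentile (-1.20 to 0.87) and the 25th to 75th percentile (-0.30 to 0.30) of all 22519 tested probe sets. Both Apc points lie beyond the outer band on the right and 1 Clasp1 point beyond it on the left, and every other point lies inside it.

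The CLASP mRNAs gave different readings at different probe sets. Clasp1 at its brightest probe set, 1452265_at, read 903 and 819 in pseudopodia, against 639 and 721 in cell bodies. Pseudopodia were higher without overlap, with a difference of 0.34 (SE 0.16, 95% interval -0.06 to 0.75, limma adjusted p = 0.228). At 1460102_at the order was the opposite, with 31.7 and 35.6 in pseudopodia, against 90.8 and 76.6 in cell bodies. There Clasp1 fell by 1.29 (SE 0.17, 95% interval -1.72 to -0.85, adjusted p = 0.0259), or 2.44-fold.

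This dim Clasp1 probe set passed the filter through its cell body arrays alone, since the pseudopodia mean lay under the filter, so it could be tested only by being higher in cell bodies. The gap between the 2 Clasp1 probe sets was 1.63 on the log2 scale (SE 0.22), and over all within-gene pairs it came to adjusted p = 0.0808. Of the others, 1427353_at was at the floor on both pseudopodia arrays and read 61.8 and 57.1 in cell bodies, which is at least 2.97-fold lower in pseudopodia, while 1459233_at read 44.2 and 40.6 in pseudopodia, against 28.8 and 31.7 in cell bodies. Neither of these entered the test. With any 1 of the 4 arrays left out, the difference at 1460102_at stayed between -1.41 and -1.17. Such a fit leaves 1 array in a compartment and, as at Apc, cannot decide whether this probe set in particular would be called. The fall was not called without the filter, at limma adjusted p = 0.128, where most calls on the array were lost. Under a stricter filter it was not tested.

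The profile over the 4 arrays nearest to that of Clasp1 at 1460102_at belonged to Txndc5 (1451091_at), a disulfide isomerase of the endoplasmic reticulum, at a distance of 0.032. Txndc5 read 1230.5 and 1399 in pseudopodia, against 3484 and 2879 in cell bodies. Ncstn, which encodes nicastrin, a membrane subunit of gamma-secretase (1418570_at), followed at 0.039, and Timp2, a secreted inhibitor of metalloproteases (1454677_at), at 0.043. Here too the likeness over 4 arrays is mainly one in the size of the difference. The Clasp1 probe set itself passed the filter only by being higher in cell bodies.

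Clasp2 read 534 and 511 in pseudopodia, against 448 and 415 in cell bodies, at its brightest probe set, 1424836_a_at. The compartments did not overlap, and the difference was 0.28 (SE 0.14, 95% interval -0.10 to 0.65, adjusted p = 0.283). At the dim 1427328_a_at the order turned, with 50.7 and 54.4 in pseudopodia, against 56.8 and 62.9 in cell bodies, a difference of -0.18 (adjusted p = 0.479). The gap between the Clasp2 probe sets was 0.46 in size (SE 0.16, adjusted p = 0.229 over the within-gene pairs). At their brightest probe sets, then, both CLASP mRNAs lay higher in pseudopodia by amounts that did not pass the test.

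The CLIP mRNAs had differences below 0 at all 4 of their tested probe sets, and 0 of the 4 passed the test (limma, 1 of 4 at an unadjusted p under 0.05). Clip1, the founding member of the plus-end tracking proteins, read 469 and 662 in pseudopodia, against 589 and 641 in cell bodies, at its brightest probe set 1452929_at. The 2 pseudopodia arrays bracketed the cell body arrays, and the difference was -0.14 (SE 0.22, 95% interval -0.71 to 0.42, adjusted p = 0.722). At 1439800_at both pseudopodia values were under both cell body values, at 94.9 and 125 in pseudopodia, against 185 and 179.9 in cell bodies. The difference of -0.74 (SE 0.19, 95% interval -1.23 to -0.25, limma adjusted p = 0.0742) did not pass the threshold. It did with array medians set equal (-0.77, adjusted p = 0.0358). That setting called 2471 of all 22519 tested probe sets lower, against 1676 in the main fit.

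At the remaining tested Clip1 probe set, 1450351_a_at, values were 52.5 and 68.6 in pseudopodia, against 64.5 and 84.9 in cell bodies, a difference of -0.30 (SE 0.22, adjusted p = 0.448). Clip2, a close relative known from the brain, had 1 probe set, which read 74.0 and 69.1 in pseudopodia, against 93.9 and 59.2 in cell bodies. Its compartments overlapped, and the difference was -0.06 (SE 0.26, 95% interval -0.73 to 0.61, adjusted p = 0.906).

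The spectraplakin mRNAs had small differences at their brightest probe sets, within intervals too wide to show an even distribution. Macf1 read 1195 and 1436 in pseudopodia, against 1180.2 and 1389 in cell bodies, at 1428847_a_at, a difference of 0.03 (SE 0.18, 95% interval -0.44 to 0.50, adjusted p = 0.928). Within each compartment replicate 2 was the higher one there. At 1428848_a_at Macf1 was lower in pseudopodia without overlap, with 367 and 422 in pseudopodia, against 485 and 521 in cell bodies, a difference of -0.35 (SE 0.16, adjusted p = 0.218). The dim 1439582_at read 50.0 and 103 in pseudopodia, against 72.8 and 61.1 in cell bodies, and gave a difference of 0.11 (SE 0.37, adjusted p = 0.883) that 1 array could turn: it was 0.62 without pseudopodia replicate 1 and -0.41 without pseudopodia replicate 2.

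Dst at its brightest probe set, 1450119_at, varied with the replicate number more than with the compartment. It read 2180.2 and 1198 in pseudopodia, against 2249 and 998 in cell bodies, with replicate 1 named first in each. Replicate 1 was thus the higher in both compartments, and the difference of 0.11 had an SE of 0.49 and a 95% interval of -1.18 to 1.40, the widest among the 26. The Dst probe set 1423626_at did not show that split, with 397 and 607 in pseudopodia, against 468 and 478 in cell bodies, and a difference of 0.05 (SE 0.24, adjusted p = 0.912).

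At 1421276_a_at, Dst was lower in pseudopodia without overlap, at 84.4 and 118 in pseudopodia, against 161 and 176 in cell bodies. The difference was -0.75 (SE 0.21, 95% interval -1.30 to -0.19, limma adjusted p = 0.0931). With array medians set equal it was -0.78 and past the threshold (adjusted p = 0.0433). As at Clip1, that setting called more probe sets lower over the whole array, 2471 against 1676. The untested Dst probe set, 1421117_at, stood at the floor on all arrays but pseudopodia replicate 1, where it read 22.8. Each spectraplakin had 1 of 3 tested probe sets with lower values in pseudopodia on every array, as had 30.9% of all tested probe sets. Of the 6, 0 passed the test (limma, 1 of 6 at an unadjusted p under 0.05).

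Over all members, 16 pairs of a further probe set with the brightest one of its gene could be tested, and 0 passed the threshold (limma, 6 of 16 at an unadjusted p under 0.05). The same held for all 8065 such pairs on the array, of which 0% were called and 21.4% had an unadjusted p under 0.05. Differences between probe sets of 1 gene are therefore given as measured values only. With each gene represented by its brightest probe set, 1 of the 10 genes was called, again Apc (adjusted p = 0.0202), against 14.6% of 11320 genes.

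Other genes of the same processes were examined in 4 lists, whose calls are set beside the 11.7% of all tested probe sets that were called, 4.3% higher and 7.44% lower. Among other plus-end genes, 24 of 26 had a tested probe set, and of their 49 probe sets 1 was called higher and 2 lower (6.12%), with a median of -0.06. Pafah1b1, which encodes the dynein regulator Lis1, rose by 0.84 at 1417086_at (SE 0.16, limma adjusted p = 0.0395), at 245 and 232 in pseudopodia, against 143 and 122 in cell bodies. Its brightest probe set, 1460199_a_at, had a difference of -0.00064. Ndel1, a partner of Lis1 at dynein, fell by 0.96 at 1424893_at (SE 0.18), while its brighter probe set 1422568_at had a difference of -0.15 (adjusted p = 0.553). Kif2c, a kinesin that takes microtubule ends apart, fell by 0.88 at 1449060_at (SE 0.17), with differences of -0.34 to 0.53 at its 3 other tested probe sets.

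Genes whose products bind or act with APC held calls in both directions, at a share near that of all tested probe sets. Of 23 genes 21 were tested, and of 53 probe sets 5 were called higher and 2 lower (13.2%, against 11.7% of all tested probe sets), with a median of 0.06. The formins Diaph1, Diaph2 and Diaph3 promote actin filaments and stable microtubules. Diaph2 rose by 1.20 at 1442003_at (SE 0.19, adjusted p = 0.0309). Its dimmer 1427564_at was also called higher, by 1.61 (SE 0.26, adjusted p = 0.0311), but passed the filter through its pseudopodia arrays alone. Diaph3 rose by 1.53 (SE 0.27, adjusted p = 0.0366), at 313 and 507 in pseudopodia, against 146 and 129 in cell bodies. Diaph1 had 3 tested probe sets, with differences of -0.67 to 0.14, and 0 of them passed (limma, 1 of 3 at an unadjusted p under 0.05).

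Kif3a, a motor subunit of kinesin-2, rose by 0.78 at 1436560_at (SE 0.15, limma adjusted p = 0.0425), and its 3 other probe sets, with differences of 0.27 to 1.11, did not pass. The difference of 1.11 was at the dim 1455652_at, whose cell body mean lay under the filter. Of the 4 tested probe sets of Kif3b, the partner of Kif3a in the motor, 0 passed (limma, 1 of 4 at an unadjusted p under 0.05), with differences of -0.25 to 0.77. Kifap3, the kinesin-2 subunit that links the motor to APC, rose by 0.98 at 1451783_a_at (SE 0.20, adjusted p = 0.0459), while its brighter 1417181_a_at had a difference of 0.11. Ctnnb1, which encodes beta-catenin, fell by 2.17 at 1430533_a_at (SE 0.39, adjusted p = 0.0375), with 197 and 96.8 in pseudopodia, against 736 and 534 in cell bodies. Its brightest probe set, 1420811_a_at, overlapped between compartments, with a difference of -0.09 (adjusted p = 0.748). Iqgap1, a scaffold that binds APC and CLIPs, fell by 0.86 at 1417380_at (SE 0.14, adjusted p = 0.0310), and its 3 other tested probe sets had differences of -1.17 to -0.34.

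**Figure D3:**
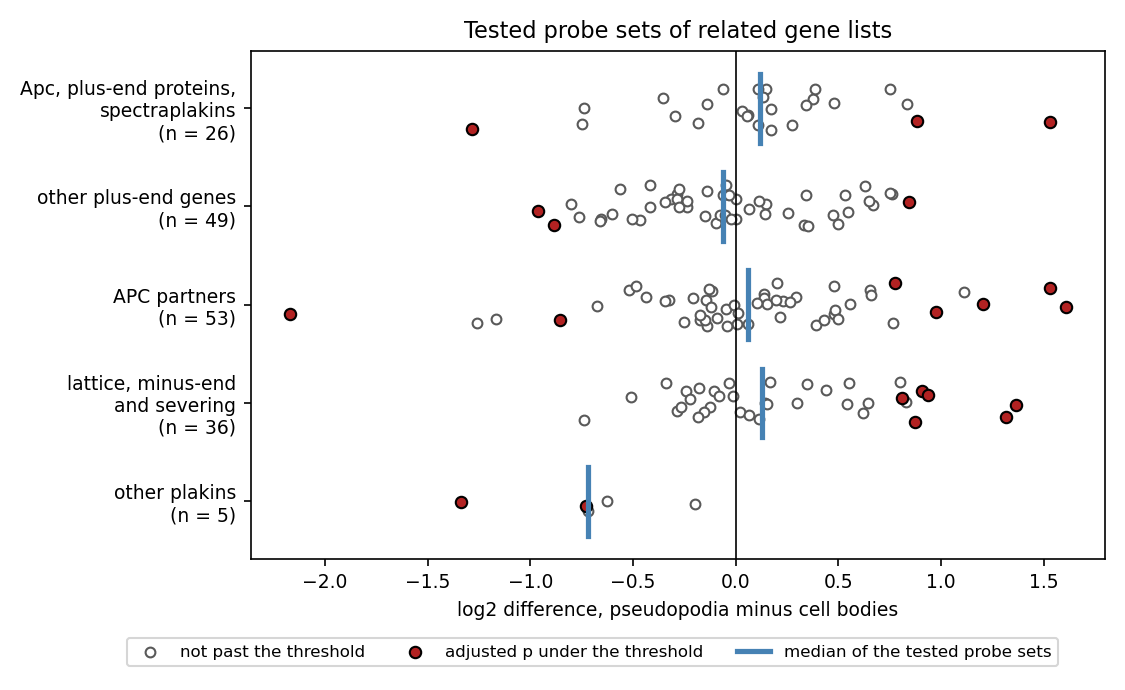
Log2 difference, pseudopodia minus cell bodies, of every tested probe set in the members (top) and in the 4 lists of related genes, jittered vertically; filled points had an adjusted p under the threshold and blue bars mark medians. The 6 calls of the lattice, minus-end and severing list lie above 0 and the 2 of the other plakins below 0, with both directions in the remaining lists.

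Genes of the microtubule lattice, minus ends and severing held 6 calls, which came from 4 genes. Of 28 listed genes 18 were tested, and of 36 probe sets 6 were called higher and 0 lower (limma, 16.7% called against 11.7% of all tested probe sets, 9 higher and 2 lower at an unadjusted p under 0.05), with a median of 0.13. Dclk1, a microtubule-binding kinase of the doublecortin family, rose by 1.31 at 1436659_at and by 1.37 at 1424271_at (SE 0.15 each, adjusted p = 0.0241 each). At 1436659_at it read 944 and 863 in pseudopodia, against 351 and 374 in cell bodies. Its brightest probe set, 1451289_at, had a difference of 0.83 (adjusted p = 0.0550), and its 3 other tested probe sets had differences of -0.27 to 0.80. Camsap2, which holds microtubule minus ends, rose by 0.87 at 1429044_at and by 0.81 at 1453000_at (SE 0.15 each), while 1431155_at had a difference of -0.15. Kif2a, a depolymerising relative of Kif2c, rose by 0.91 at 1450053_at (SE 0.14), with differences of 0.11 to 0.64 at its 3 other tested probe sets. Mid2, a microtubule-bound ubiquitin ligase, rose by 0.93 at its tested probe set 1422216_at (SE 0.16).

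The other plakins offered few probe sets. Of 5 genes 4 were tested, and of 5 probe sets 0 were called higher and 2 lower, against 4.3% and 7.44% of all tested probe sets (limma, 0 higher and 4 lower at an unadjusted p under 0.05), with a median of -0.72. Plec, which encodes plectin, a linker of intermediate filaments, fell by 1.34 at 1434610_at (SE 0.20, adjusted p = 0.0290). It read 1992 and 2693 in pseudopodia, against 5638 and 6069 in cell bodies, and its brighter 1419835_s_at had a difference of -0.72 (adjusted p = 0.0688). Eppk1, which encodes epiplakin, fell by 0.73 (SE 0.14, adjusted p = 0.0400). Like the Apc calls, those of the lists were lost when any 1 array was left out, as were all other calls on the array.

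The arrays shared 1 chip lot, 1 fluidics station, 1 scanner and 1 scan day, and each had a fluidics module to itself, which leaves no recorded batch to test. Log2 values correlated across tested probe sets at 0.979 between pseudopodia arrays, 0.984 between cell body arrays and 0.942 to 0.950 between compartments. Of 8 fibroblast markers 7 were tested, Thy1 being at the floor on all 4 arrays, and their summed intensity was 68758 and 69346 in pseudopodia, against 98932.5 and 90731 in cell bodies. Of their 15 tested probe sets, 0 were called higher and 5 lower (limma, 33.3% called against 11.7% of all tested probe sets, 0 higher and 9 lower at an unadjusted p under 0.05). The 5 calls came from 3 genes, Col1a1, Col1a2 and Pdgfrb. Tested probe sets of Fn1 and Lox had differences of -0.82 to -0.29, and those of Vim and S100a4 of -0.15 to -0.07. Markers of blood and endothelial cells had 0 probe sets past the filter, and those of neurons had 1, of Rbfox3, at 65.3 and 95.1 in pseudopodia, against 65.1 and 73.3 in cell bodies. The epithelial markers summed to 3534 and 3305 in pseudopodia, against 5007 and 3807 in cell bodies, mostly from Krt14, with 0 of 6 tested probe sets called (limma, 0 higher and 2 lower at an unadjusted p under 0.05). The 3' over the 5' control signal of Actb, as a log2 ratio, was 0.56 and 0.65 in pseudopodia, against 0.37 and 0.36 in cell bodies. That of Gapdh was -0.075 and -0.066 in pseudopodia, against -0.095 and -0.098 in cell bodies. What part these differences have in the values of the long Apc, Clasp1, Macf1 and Dst transcripts was not tested.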

How the data were processed

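The authors deposited 1 intensity per probe set and array, on a linear scale with a floor of 20; the sources used here give neither the summary of probes nor the scaling nor the software. The maker's standard labelling protocol was used, per the labels. The 64 control probe sets were left out. Probe sets were named from the platform annotation (34945 of 45037 with 1 symbol, 932 with several, 9160 unnamed); all 37 member probe sets matched a gene of the same symbol in RefSeq's table for GRCm38.p6. As the array's build is not named, no coordinates are given.

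Values were taken as log2(intensity + 1), so folds of dim probe sets are understated. No further scaling was applied. Probe sets with a mean at or above the median (log2 5.42) entered 1 fit in limma 3.58.1 (R 4.3.3; a two-sided moderated test by eBayes without covariates, 2 residual and 2.70 prior degrees of freedom), which was tested on simulated data. Intervals are 95% intervals of single probe sets, not adjusted. Within-gene pairs were fitted the same way on within-array log2 ratios. With 2 arrays per compartment the precision is limited by their number, and a permutation test of 4 arrays cannot reach the threshold, so none was run.

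The text names every member probe set and, from each list, the called genes, up to 8. The 3 nearest profiles are named for the largest called rise and fall. Members and lists were chosen with earlier results of these data known. In all, 15 alternatives were run.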

Additional observations from a re-analysis of the deposited data

How the results depend on the processing

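Only a new scaling of the arrays could have turned the direction of the 3 called member probe sets, whose compartments did not overlap. Under both scalings tried, by quantiles and by equal array medians, these probe sets kept their direction. They lost their calls without a filter and with any 1 array left out, and the dimmer Apc probe set and that of Clasp1 were untested under the stricter filter, where Apc 1420956_at stayed called (adjusted p = 0.0059). Of 26 tested member probe sets, 2 were called higher and 1 lower. These were 1 and 0 of 10 with 1 probe set per gene and 0 and 0 of 37 without a filter. With array medians set equal they were 2 and 3 of 26, and with the stricter filter 2 and 0 of 15. The counts over all probe sets moved as well. There, 969 higher and 1676 lower of 22519 became 1773 and 2667 with an intensity trend in the prior variance. They were 1336 and 2471 with equal medians and 33 and 40 of 45037 without a filter. With the stricter filter they were 1240 and 1746 of 11260, and at gene level 670 and 984 of 11320. The listed genes' 12 higher and 6 lower became 19 and 14 with the trend, 0 and 2 without a filter, 6 and 2 at gene level, and 10 lower with equal medians and 11 with the stricter filter. Leaving out each array in turn gave 0 to 0 for every one of these counts, and for pairs of probe sets. Mapre2 1451989_a_at passed with the trend (adjusted p = 0.0264) and the stricter filter (0.0272).

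Same-numbered arrays deviated together (correlation 0.33 across tested probe sets). With 2 pairs and no label of a shared culture, whether they are paired cannot be told. With the replicate number as a block, 1287 probe sets were called higher and 2063 lower, 3 and 1 of them members, Mapre2 1451989_a_at added (adjusted p = 0.0429), and 10 listed probe sets were lower.

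Signs turned at probe sets that were not called. Leaving out 1 array could not turn those of the called probe sets, as their compartments did not overlap. Macf1 1428847_a_at was -0.0011 with equal medians. With 1 array left out the ranges that crossed 0 were -0.33 to 0.44 (Mapre2 1451990_at), -0.051 to 0.31 (Mapre3), -0.39 to 0.11 (Clip1 1452929_at), -0.39 to 0.27 (Clip2), -0.10 to 0.17 and -0.41 to 0.62 (Macf1 1428847_a_at and 1439582_at), and -0.48 to 0.70 and -0.25 to 0.36 (Dst 1450119_at and 1423626_at). For pairs with the brightest probe set they were -0.79 to 0.68 (Dst 1423626_at), -0.31 to 0.46 (Macf1 1439582_at), -0.0075 to 0.061 (Mapre2 1426244_at) and -0.44 to 0.26 (Mapre2 1451990_at). The cause was not tested.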
